A study of Mus musculus with 48 samples.

Results

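The first 30 min of actinomycin D were examined in mouse embryonic fibroblasts that lack tristetraprolin (TTP). The comparison set the 5 arrays of Zfp36 -/- cells (KO) after 30 min of actinomycin D against the 4 arrays of the same cells at 0 min, 9 of the 48 arrays of the series. All 45037 probe sets other than the array's control probe sets belonged to the comparison. A probe set was tested if 4 or more arrays gave it a signal over their own median, which left 27500, and the 17537 dimmer ones were not tested.

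Zfp36 encodes TTP, a zinc finger protein that binds AU-rich elements in the 3′ ends of messenger RNAs and recruits the machinery that removes their poly(A) tails. Serum given to resting fibroblasts switches on immediate-early genes, most of which encode transcription factors and signalling regulators, and many of their messages are made and destroyed quickly. Actinomycin D binds DNA and blocks RNA polymerases, so a message that is no longer replaced declines at its own rate of decay.

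The KO cells had no intact Zfp36 allele, and the WT cells were Zfp36 +/+. Both genotypes came from E14.5 littermate embryos (whole embryo without head and organs) of Zfp36 +/- parents of strain 129/B6. The labels name a cell line per genotype, apparently 1 line each, and with 1 line each the genotype and the line cannot be told apart. Every group had spent 16 h in 0.5% serum followed by 90 min in 10% serum, and each sample pooled 3 dishes of 100 mm. The 30 min samples had then received actinomycin D for 30 min and the 0 min samples none. Its dose is given as 5 ug/ml in the text of the series and as 0.5 ug/ml in the sample labels. The WT line had 5 arrays at 30 min and 5 at 0 min. The KO line also had 4 arrays at 60 min, 5 at 90 min and 5 at 120 min, which are quoted as levels only.

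RNA was measured on Affymetrix Mouse Genome 2.0 arrays, and the values are log2 signals, whose log base was inferred from their range. Array medians lay between 8.47 and 8.56. Signals near the floor of 8.13, the highest 5th percentile of an array, carry little information, so falls that end there are compressed. The authors' normalization is not given, but the alike medians would follow from scaling the arrays to each other. With such scaling, a higher signal after actinomycin D can be a smaller loss than the average. In pooled dishes, fewer cells that hold a message and less message per cell cannot be told apart. Of 11 fibroblast markers 10 were tested, with a median level of 11.9 at 30 min and 11.9 at 0 min in KO cells. The tested markers of epithelium, skeletal muscle, endothelium, macrophages and blood, nerve, and cartilage and bone had median levels between 8.46 and 8.69 at both times, near the array median, and 0 of the 47 markers tested passed between 30 and 0 min (limma; 6 were lower and 0 higher at an unadjusted p under 0.05).

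The arrays of replicate numbers 1 to 3 and those of 4 and 5 stood apart. On the first component of the deviations from the group means, which held 33.9% of their variance, the 18 arrays of replicates 4 and 5 scored between -15.5 and -3.98, and the 30 arrays of replicates 1 to 3 between -2.38 and 19.7. The KO 0 min group had no replicate 5, so that replicates 4 and 5 gave 2 KO arrays at 30 min and 1 at 0 min. The labels do not say what differed between these sets of arrays, and values with this split as a block and within each set are printed beside the pooled counts.

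Zfp36 itself had 1 tested probe set. Its signals in KO cells were 8.69, 8.86, 8.64, 8.68 and 8.47 at 30 min, against 9.60, 9.58, 9.28 and 9.59 at 0 min. The disrupted gene thus still gave a signal above the floor at 0 min, and every 30 min array lay below every 0 min array. In WT cells the signals were 8.68, 9.26, 8.80, 8.52 and 8.46 at 30 min, against 9.84, 10.14, 9.83, 9.69 and 9.83 at 0 min. The labels do not place this probe set relative to the disruption, so these signals do not check the genotype.

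The signal of 343 probe sets fell within 30 min in KO cells (1.25% of those tested) and that of 8 rose (0.0291%), by limma with a Benjamini-Hochberg adjusted p under 0.05. By the brightest probe set of each gene, many of the largest falls were in immediate-early transcription factors and feedback regulators of kinase signalling, with the phosphatase Dusp2 first. The median change of all tested probe sets was -0.0016 (log2), with quartiles of -0.045 and 0.044, while the falls had a median of -0.29 and reached -1.74. By at least 1.5-fold, 46 probe sets of 32 named genes fell (0.167% of those tested) and 0 rose (also 0 at an unadjusted p under 0.05).

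**Figure D1:**
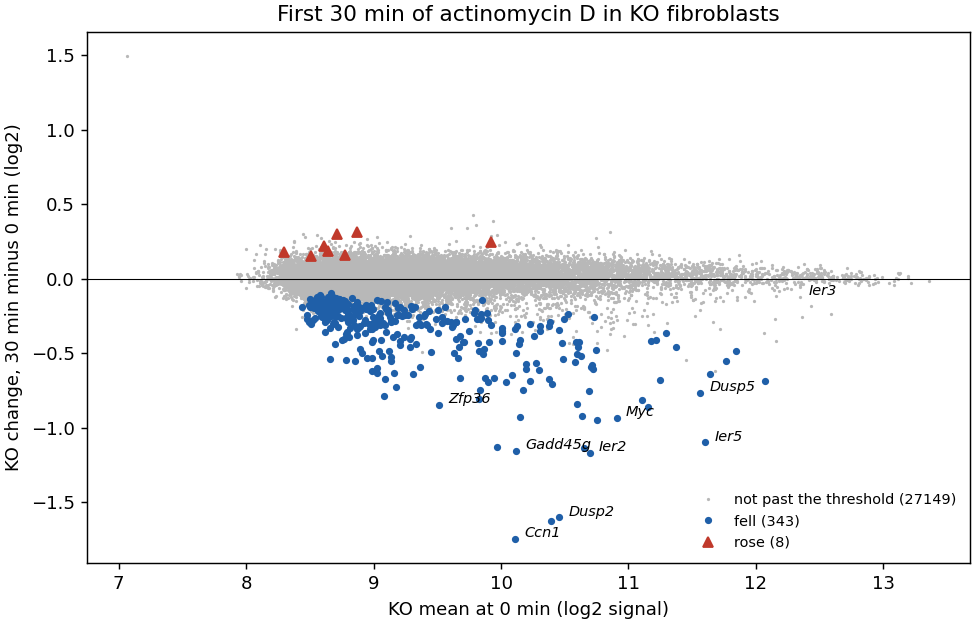
Each point is 1 of the 27500 tested probe sets, with the mean of 4 KO arrays at 0 min on the horizontal axis (log2 signal) and the change at 30 min on the vertical axis (log2). The 343 probe sets that fell (blue circles) reach -1.74, whereas the 8 that rose (red triangles) stay at or below 0.31.

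With the split of replicates 1 to 3 against 4 and 5 as a block, 412 probe sets fell (1.5%) and 16 rose (0.0582%). Within replicates 1 to 3 alone 232 fell (0.844%) and 1 rose (0.00364%), and within replicates 4 and 5 alone 216 fell (0.785%) and 4 rose (0.0145%). Of the 343 falls, 216 were also called within replicates 1 to 3 and 150 within replicates 4 and 5. Of the 8 rises, 0 were called again within either set (467 and 817 tested probe sets were higher at an unadjusted p under 0.05 in these fits). Leaving out replicate 1 lowered the number of falls most, to 197, of which 187 were among the 343. The number of rises was 15 without replicate 1, 1 without replicate 2, and 2 without replicate 3, 4 or 5.

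Among the 343 falls, 274 had every 30 min array below every 0 min array, a pattern seen in 619 probe sets (2.25% of those tested). The change had the same sign in each of replicates 1 to 4 for 334 of the falls. The falls were picked by their change in these same arrays, so this count is no separate support. The replicate numbers were also not taken as pairs. The median level of the falls was 8.69 at 30 min against 9.04 at 0 min, beside 8.80 and 8.81 for all tested probe sets. The mean at 30 min already lay under the array median for 97 of them. Of the 343, 263 carried 1 gene symbol (225 genes), 10 several and 70 none, so that 20.4% had no symbol against 13.4% of all tested probe sets.

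With 1 probe set per gene, the brightest, 124 of 13018 genes fell (0.953%) and 2 rose (0.0154%). The 16 genes with the largest falls, all with the same sign in each of replicates 1 to 4, were Dusp2, Ier2, Gadd45g, Egr1, Trib1, Ier5, Jun, Myc, Socs3, Dusp1, Zfp36, Dusp6, Dusp5, Id1, Fos and Klf10. In each of these 16 the signals of the 30 min and 0 min arrays did not overlap. RefSeq's gene models (GRCm38.p6) gave the genes that fell a median span of 13.2 kb (123 with a span), against 23.1 kb for all genes tested (12949 with a span).

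**Figure D2:**
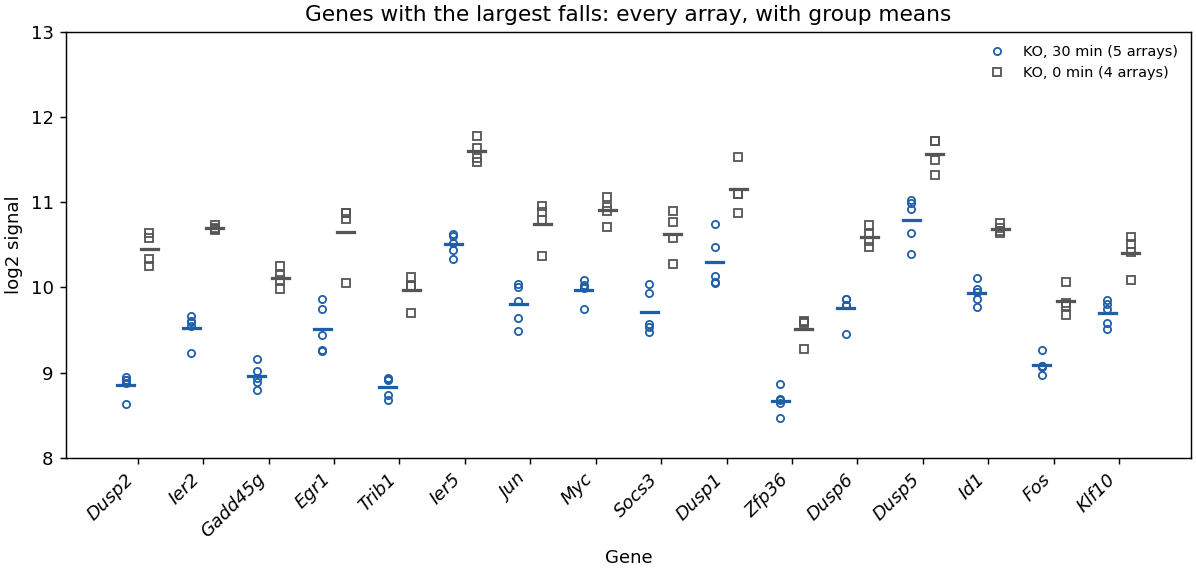
Log2 signals of the 16 genes with the largest falls in KO cells, with a circle for each of the 5 arrays at 30 min, a square for each of the 4 arrays at 0 min, and bars for the means. For each gene all circles lie below all squares, with the widest gap of means for Dusp2 (8.85 against 10.46).

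Serum response factor is a known driver of many serum-induced genes and binds CArG boxes, in which CC and GG enclose a run of A and T. RefSeq's promoter table had an entry for 98 of the genes that fell, and the 250 bases before the start site were searched on both strands. A CArG box was found in 3 of the 98 (3.06%) and in 132 of 10474 genes tested with an entry (1.26%). Zfp36 and Dusp5 were the only ones among the 16 largest falls to hold a box, of 10 with an entry, and their promoters are shown for that reason. The windows are from GRCm38.p6, at chr7:28379232-28379331 on the minus strand for Zfp36 and chr19:53529018-53529127 on the plus strand for Dusp5, and the boxes are in capitals.
Zfp36: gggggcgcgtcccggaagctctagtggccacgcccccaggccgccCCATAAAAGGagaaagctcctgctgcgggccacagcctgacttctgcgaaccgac
Dusp5: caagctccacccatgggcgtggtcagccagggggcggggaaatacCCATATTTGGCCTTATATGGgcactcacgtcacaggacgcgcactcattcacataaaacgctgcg
The Zfp36 window holds 1 box and the Dusp5 window 2 adjoining boxes. The cyclic AMP element TGACGTCA was present in 4 of the 98 (4.08%) and in 2.6% of all promoters, its shorter form TGACG, which the full element contains, in 33 (33.7%) and in 26% of all, and the AP-1 element TGANTCA in 2 (2.04%) and in 4.72% of all. A match in this window is a description of the letters and not evidence of binding.

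Immediate-early transcription factors were the group with the lowest median. Of 39 tested members 13 fell and 0 rose (0.953% of all genes fell), and their median change was -0.31 against -0.0025 for all genes. Those 13 were Ier2, Egr1, Ier5, Jun, Myc, Fos, Klf10, Bhlhe40, Ier5l, Csrnp1, Fosl2, Egr2 and Arid5b. Another 10 members were lower at an unadjusted p under 0.05 without passing the threshold, and 0 were higher. Junb, a partner of Fos in the AP-1 factor, changed by -0.54 (adjusted p = 0.0884) and the orphan nuclear receptor Nr4a1 by -0.36 (adjusted p = 0.477), neither past the threshold.

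Ier2, a nuclear immediate-early protein, had signals of 9.66, 9.60, 9.59, 9.55 and 9.23 at 30 min, against 10.69, 10.73, 10.67 and 10.69 at 0 min. The 0 min arrays lay within 0.06 of each other, and replicate 5 was the lowest at 30 min. The change was -1.17 ± 0.11 (SE; limma adjusted p = 4.08e-10). Ier5, an immediate-early gene whose protein acts in the heat shock response, gave 10.33, 10.53, 10.44, 10.63 and 10.60 at 30 min, against 11.52, 11.64, 11.48 and 11.78 at 0 min. All 5 arrays at 30 min were lower by far more than the spread within either group, and the change was -1.10 ± 0.10 (adjusted p = 2.74e-10).

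Egr1, the zinc finger factor that serum induces within minutes, had signals of 9.44, 9.87, 9.75, 9.25 and 9.27 at 30 min, against 10.87, 10.81, 10.88 and 10.06 at 0 min. Replicate 4 was well below the others at 0 min, yet still above every 30 min array. The change was -1.14 ± 0.17 (adjusted p = 1.07e-05). Myc, which drives growth and division, gave 10.03, 10.09, 10.00, 10.01 and 9.75 at 30 min, against 10.95, 11.06, 10.71 and 10.90 at 0 min. It fell by 0.93 ± 0.093 (adjusted p = 8.49e-10), again without overlap.

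The AP-1 subunits Jun and Fos fell as well. Jun stood at 9.80 ± 0.24 (SD, n = 5) at 30 min and 10.75 ± 0.26 (SD, n = 4) at 0 min, a change of -0.95 with a limma adjusted p of 2.79e-07. Fos stood at 9.09 ± 0.11 and 9.84 ± 0.16, a change of -0.75 (adjusted p = 1.86e-07). At 0 min Fos thus gave a lower signal than Jun, although signals of different probe sets cannot be ranked as amounts. Fosl2, a Fos relative, changed by -0.55 and Egr2, a relative of Egr1, by -0.51. The growth-factor-induced Klf10 changed by -0.71, the repressor Bhlhe40 by -0.67, Csrnp1 by -0.58, Ier5l by -0.64 and the DNA-binding protein Arid5b by -0.35. The call of Arid5b was lost without replicate 1, 2, 3 or 4 (adjusted p = 0.062 to 0.175), whereas the other 12 calls stood without each replicate in turn. Egr2 missed the threshold when only the arrays of 0 and 30 min were fitted (adjusted p = 0.0591), and Fos within replicates 4 and 5 (-0.64, adjusted p = 0.0508).

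Feedback regulators of MAP kinases and receptors also held falls. Of 27 tested members 6 fell and 0 rose, beside falls in 0.953% of all genes, with a median of -0.086. They were the dual-specificity phosphatases Dusp2, Dusp1, Dusp6, Dusp5 and Dusp16, which remove phosphate from MAP kinases, and Socs3, which restrains cytokine receptor signalling. Dusp2, a nuclear phosphatase, had the largest fall among the brightest probe sets per gene, with signals of 8.94, 8.88, 8.91, 8.91 and 8.63 at 30 min, against 10.34, 10.25, 10.59 and 10.64 at 0 min. The nearest arrays of the groups were 1.31 apart. The change of -1.60 ± 0.099 (adjusted p = 3.05e-16) corresponds to a 3.03-fold lower signal, and the level went on to 8.37 at 60 min, 8.29 at 90 min and 8.27 at 120 min, close to the floor.

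The ERK phosphatases Dusp6 and Dusp5 also fell. Dusp6 gave 9.80, 9.87, 9.80, 9.86 and 9.45 at 30 min, against 10.62, 10.74, 10.47 and 10.55 at 0 min (change -0.84 ± 0.11, adjusted p = 3.14e-07), and replicate 5 was the lowest. Dusp5, whose promoter is shown above, gave 10.93, 10.99, 11.03, 10.64 and 10.40 at 30 min, against 11.72, 11.72, 11.32 and 11.50 at 0 min. It fell by 0.77 ± 0.11 (adjusted p = 6.92e-06), with replicates 4 and 5 lowest at 30 min. Its mean level was 11.56 at 0 min, 10.80 at 30 min, 9.39 at 60 min, 8.79 at 90 min and 8.69 at 120 min, so most of its decline came after the first 30 min.

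Dusp1, an inducible phosphatase of p38 and JNK, stood at 10.30 ± 0.31 (SD, n = 5) at 30 min and 11.16 ± 0.28 (SD, n = 4) at 0 min. Replicates 4 and 5 were higher than the rest at 30 min, at 10.75 and 10.48, and still below every 0 min array. It changed by -0.86 (limma adjusted p = 4.47e-08), but missed the threshold when only the arrays of 0 and 30 min entered the fit (adjusted p = 0.0589). Socs3 stood at 9.71 ± 0.26 and 10.63 ± 0.27, a change of -0.92 (adjusted p = 2.02e-05) that was of like size but not called within replicates 4 and 5 (-0.91, adjusted p = 0.188). Dusp16 changed by -0.26 and lost its call without replicate 1, 2 or 4 (adjusted p = 0.11 to 0.416). The EGF receptor inhibitor Errfi1 (-0.24, adjusted p = 0.27) and the receptor antagonist Spry2 (-0.27, adjusted p = 0.304) were not past the threshold.

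**Figure D3:**
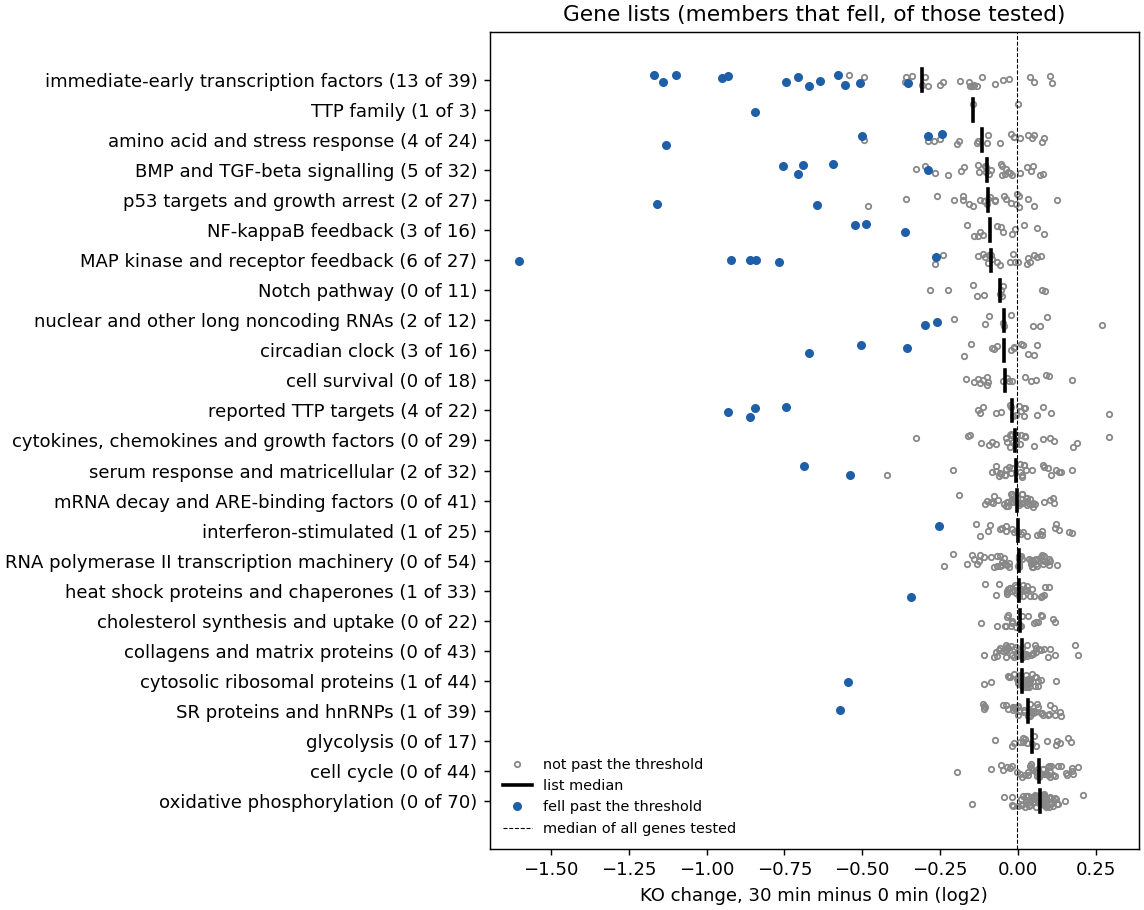
Change of each tested list member in KO cells (30 min minus 0 min, log2), with filled points for members that fell past the threshold, black bars for list medians and a dashed line for the median of all genes tested. Falls numbered 13 of 39 in the immediate-early list and 6 of 27 in the MAP kinase feedback list, beside 0.953% of all genes. Several other lists held shares between 15.6% (BMP and TGF-beta signalling) and 18.8% (NF-kappaB feedback and circadian clock).

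Growth arrest genes showed few but large falls. Of 27 p53 targets and growth arrest genes 2 fell, beside 0.953% of all genes, and the list's median was -0.10. They were Gadd45g and Gadd45b, stress-induced proteins that bind and activate the kinase MEKK4. Gadd45g gave 8.79, 9.02, 8.89, 9.16 and 8.94 at 30 min, against 10.08, 9.98, 10.26 and 10.15 at 0 min, a change of -1.16 ± 0.081 (adjusted p = 2.08e-14). Gadd45b gave 9.49, 9.34, 9.46, 9.44 and 9.48 at 30 min, against 10.12, 10.08, 10.15 and 10.01 at 0 min, a change of -0.65 ± 0.057 (adjusted p = 4.6e-11). Both had separate groups, and both levels stayed nearly level afterwards: Gadd45g was at 8.82 at 60 min and 8.88 at 120 min, and Gadd45b at 9.43 and 9.49. The p53 target Btg2 changed by -0.48 at its brightest probe set without passing the threshold (adjusted p = 0.238). Its other tested probe set changed by -0.69 and passed.

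In BMP and TGF-beta signalling 5 of 32 members fell, beside 0.953% of all genes, with a median of -0.10. They were Id1 and Id3, which block basic helix-loop-helix factors, the inhibitory Smad7, Klf10 and the corepressor Tgif2. Smad7 gave 9.47, 9.53, 9.50, 9.68 and 9.52 at 30 min, against 10.10, 10.28, 10.23 and 10.31 at 0 min. These groups were narrow and well apart, and the change was -0.69 ± 0.086 (adjusted p = 2.51e-07). Id1 changed by -0.76 (adjusted p = 0.000326; within replicates 4 and 5 -0.76, adjusted p = 0.0792). Id3 changed by -0.59 and lost its call without replicate 1, 3 or 4 (adjusted p = 0.0721 to 0.192), and Tgif2 by -0.29 and lost it without replicate 1 (adjusted p = 0.0604).

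Of 16 NF-kappaB feedback genes 3 fell, beside 0.953% of all genes, with a list median of -0.091. Tnfaip3, the ubiquitin-editing inhibitor A20, gave 8.51, 8.51, 8.61, 8.72 and 8.70 at 30 min, against 9.07, 9.08, 9.12 and 9.27 at 0 min. The groups did not overlap, the change was -0.52 ± 0.064 (adjusted p = 1.52e-07), and the mean lay under the floor by 60 min, at 8.09. Nfkbia, the inhibitor that holds NF-kappaB in the cytoplasm, changed by -0.49 (adjusted p = 0.0112) and Nfkbiz by -0.36 (adjusted p = 0.0215). At these brightest probe sets Nfkbia lost its call without replicate 1 or 2 (adjusted p = 0.0912 to 0.252), and Nfkbiz without replicate 3, 4 or 5 (adjusted p = 0.0652 to 0.159). All 5 tested probe sets of Nfkbia fell, with changes between -0.81 and -0.46. Of the 3 of Nfkbiz 2 fell, and the 3 changed by between -0.79 and -0.34.

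Among 24 amino acid and stress response genes 4 fell, beside 0.953% of all genes, with a median of -0.11. They were Trib1, Chac1, Ppp1r15a and Ddit3. Trib1, a pseudokinase that directs C/EBP factors to degradation, gave 8.67, 8.92, 8.92, 8.93 and 8.73 at 30 min, against 10.02, 10.02, 9.70 and 10.12 at 0 min. The nearest arrays of the groups were 0.77 apart, and the change was -1.13 ± 0.069 (limma adjusted p = 1.79e-16). The other tested probe set of Trib1, the dimmer 1424881_at, changed by -0.084 without passing (limma adjusted p = 0.465). Chac1, which degrades glutathione, changed by -0.50, Ppp1r15a, a phosphatase subunit of the stress response, by -0.29 and the factor Ddit3 by -0.24. These 3 calls did not stand without every replicate. Chac1 lost its call without replicate 1 (adjusted p = 0.0562), Ddit3 without replicate 1 or 2 (adjusted p = 0.133 to 0.178) and Ppp1r15a without replicate 1, 3, 4 or 5 (adjusted p = 0.0934 to 0.319).

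In the circadian clock list 3 of 16 fell, beside 0.953% of all genes, with a median of -0.044. They were Bhlhe40, Nfil3 (-0.50, adjusted p = 0.000749, and without replicate 1 adjusted p = 0.0766) and the serum-induced clock gene Per1. Per1 gave 8.66, 8.74, 8.88, 8.71 and 8.71 at 30 min, against 9.22, 9.13, 9.02 and 9.01 at 0 min, without overlap (change -0.36 ± 0.053, adjusted p = 1.1e-05). Of 32 serum response and matricellular genes 2 fell, Ccn1 and Filip1l, a regulator of cell migration (-0.54, adjusted p = 0.000667). Ccn1, a secreted matrix protein, changed by -0.69 at its brightest probe set and lost its call without each of the 5 replicates in turn (adjusted p = 0.0515 to 0.193). Its relative Ccn2 changed by -0.42 (adjusted p = 0.526).

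Some lists held a single fall, which at 0.953% of all genes is near the background for lists of this size. The heat shock cochaperone Dnajb4 changed by -0.34 (1 of 33; call lost without replicate 2 or 3, adjusted p = 0.0586 to 0.0629), the interferon-induced factor Irf1 by -0.25 (1 of 25) and the splicing kinase Clk1 by -0.57 (1 of 39 in its list). Irf1 missed the threshold after background subtraction (adjusted p = 0.067) and within replicates 1 to 3 (adjusted p = 0.122), and Clk1 with only the arrays of 0 and 30 min (adjusted p = 0.161) and within replicates 4 and 5 (adjusted p = 0.089). Of 12 long noncoding RNAs 2 fell, both hosts of small nucleolar RNAs: Snhg5 changed by -0.30 and Snhg12 by -0.26. Snhg12 lost its call without replicate 1 or 3 (adjusted p = 0.12 to 0.193).

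Messages that TTP has been reported to target were measured in the cells that lack it. Of 22 tested members of that list 4 fell (Myc, Dusp1, Zfp36 and Fos) and 0 rose, beside falls in 0.953% of all genes, with a median of -0.019. These 4 also belong to the immediate-early, feedback or TTP family lists. Of the TTP family, Zfp36 fell by 0.85 ± 0.090 (adjusted p = 5.28e-09), and the relatives Zfp36l1 and Zfp36l2 were not past the threshold, at -0.14 and 0.0023. None of the 29 tested cytokines, chemokines and growth factors passed in either direction (limma; 2 lower and 0 higher at an unadjusted p under 0.05), and their median was -0.0090. The cytokine Il6 stood 0.29 higher at 30 min without passing (adjusted p = 0.883).

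Ier3, an immediate-early gene of cell survival, did not pass the test in the KO line. Its signals were 12.20, 12.18, 12.20, 12.28 and 12.27 at 30 min, against 12.33, 12.36, 12.29 and 12.40 at 0 min. Each 30 min array lay below each 0 min array by at least 0.01, but the change of -0.12 ± 0.12 was not past the threshold (adjusted p = 0.854). In WT cells it changed by -0.58 ± 0.11 (adjusted p = 0.000939), with signals of 11.87, 11.88, 11.85, 11.40 and 11.62 at 30 min against 12.31, 12.26, 12.40, 12.26 and 12.28 at 0 min. The difference of the changes, 0.46, did not pass the threshold over 27500 probe sets (adjusted p = 1.00).

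**Figure D4:**
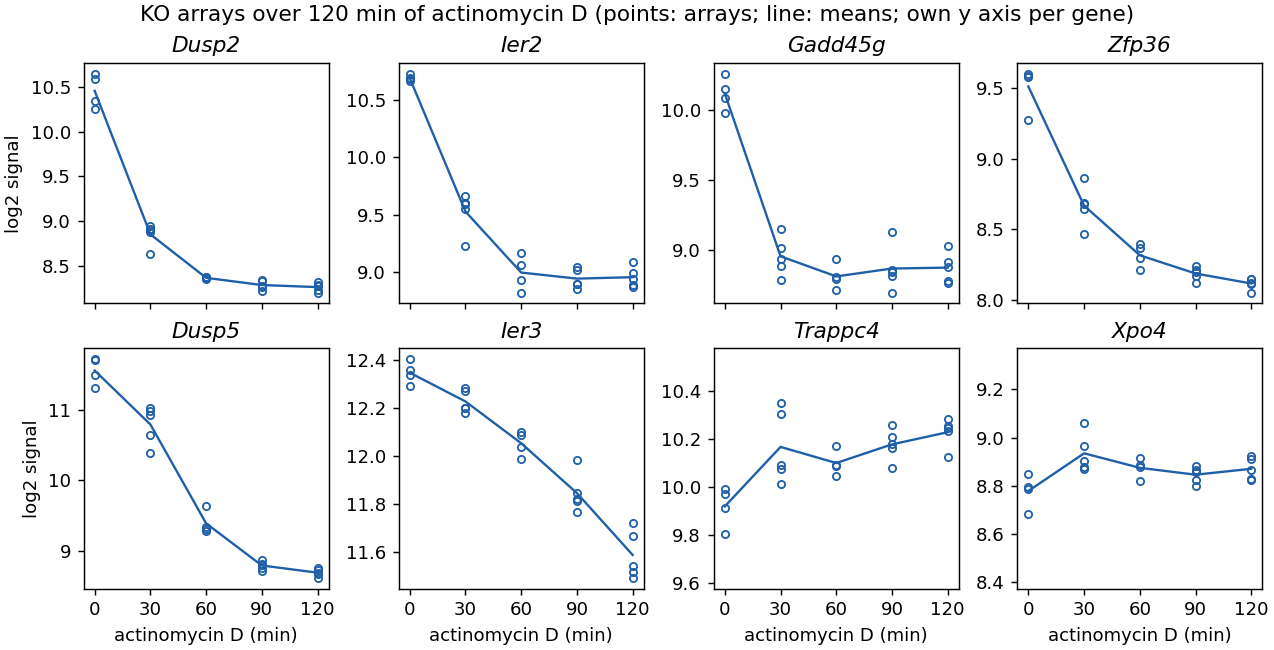
Log2 signals of 8 genes in every KO array against minutes of actinomycin D, with a line through the means and a separate vertical axis for each gene. Dusp2, Ier2 and Gadd45g made most of their decline by 30 min, Dusp5 averaged 10.80 at 30 min and 8.79 at 90 min, Ier3 averaged 11.59 at 120 min, and the later means of Trappc4 and Xpo4 lie above their 0 min means.

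Zinc finger genes named Zfp with a number, a large family of mostly repressive factors, also contributed. Of 235 tested, 20 fell (8.51%) and 0 rose, beside 0.953% of all genes, and their median was -0.039 against -0.0025. The list was formed with the data in view, and its count depended on the replicates: 12 fell without replicate 1, 2 or 4, 15 without replicate 5 and 18 without replicate 3. After Zfp36 itself came Zfp655 (-0.56, adjusted p = 1.13e-06), Zfp281 (-0.46, adjusted p = 1.05e-05), Zfp267 (-0.46, adjusted p = 0.0298), Zfp574 (-0.44, adjusted p = 1.82e-08) and Zfp622 (-0.42, adjusted p = 0.000134). At its brightest probe set Zfp655 gave 9.63, 9.77, 9.82, 9.67 and 9.66 at 30 min, against 10.26, 10.36, 10.27 and 10.21 at 0 min, well apart. Of its 3 tested probe sets 2 fell. The remaining one, 1429217_at, changed by 0.12 without passing (limma adjusted p = 0.433), with every 30 min array above every 0 min array. Zfp267 overlapped between the groups and lost its call without replicate 1, 2, 4 or 5 (adjusted p = 0.0669 to 0.536).

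By the brightest probe set per gene, lists of housekeeping and structural genes had few or no calls. At 0.953% of all genes, that is near the background for lists of this size. None of 70 oxidative phosphorylation genes fell or rose (limma; 1 lower and 7 higher at an unadjusted p under 0.05), with a median of 0.072, and within replicates 1 to 3 that median was 0.0305. None of 43 collagens and matrix proteins, 44 cell cycle genes, 22 cholesterol genes, 41 mRNA decay factors, 17 glycolysis genes, 18 survival genes, 11 Notch genes or 54 genes of the RNA polymerase II machinery passed (unadjusted p under 0.05 in 0, 1, 0, 2, 1, 1, 2 and 8 of them). Of 44 cytosolic ribosomal proteins 1 passed, Rpl12, whose only tested probe set was dim. It gave 8.36, 8.20, 8.23, 8.23 and 8.18 at 30 min, near the floor, against 8.81, 8.66, 8.75 and 8.91 at 0 min (change -0.54, adjusted p = 5.62e-07). Ribosomal protein messages are among the most abundant in a cell, so this probe set does not speak for the level of the Rpl12 message. Among genes of these kinds, probe sets other than the brightest also fell. They were 1 each for Rps9 (of 3 tested), Rps10 (of 6), Rpl41 (of 4), Hmgcs1 (of 5), Med26 (of 2), Ndufa12 (of 4) and Cox7c (of 2). The lowest change was -0.63 for Hmgcs1 and -0.15 for Ndufa12.

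Probe sets of the same gene often disagreed. Of 167 genes with several tested probe sets and at least 1 fall, 15 had every probe set called and 152 had some that were not, and in 56 the changes were more than 0.3 apart. The examples that follow were chosen after their values were seen. For Pabpc1, the poly(A)-binding protein, the bright probe set stood at 12.44 ± 0.022 (SD, n = 5) at 30 min and 12.43 ± 0.043 (SD, n = 4) at 0 min. The dim probe set 1453840_at stood at 8.43 ± 0.034 and 9.03 ± 0.093, a change of -0.60 (limma adjusted p = 6.48e-14), and remained at 8.43, 8.43 and 8.45 at 60, 90 and 120 min.

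In Noc2l and Eif2s2 a dim probe set also fell while brighter ones did not pass, whereas in Ccn1 a brighter probe set fell too. Noc2l, a nucleolar protein, changed by -0.63 at 1436136_at (8.40 at 30 min, 9.03 at 0 min) and by 0.033 at the brighter 1424323_at. Eif2s2, a subunit of initiation factor eIF2, changed by -0.54 at its dimmest probe set (8.41 at 30 min, 8.95 at 0 min), while its other 5 changed by between -0.037 and 0.044. For Ccn1, probe set 1457823_at had the largest fall of all 27500, at 8.37 ± 0.096 (SD, n = 5) at 30 min and 10.11 ± 0.31 (SD, n = 4) at 0 min (-1.74 ± 0.097 SE; limma adjusted p = 1.71e-17). Its brighter probe set 1416039_x_at stood at 11.39 at 30 min and 12.07 at 0 min and declined further to 10.33, 9.24 and 8.91 at 60, 90 and 120 min, whereas 1457823_at stayed at 8.34, 8.28 and 8.28. Which transcript forms these probe sets detect was not tested.

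The 8 rises were small, between 0.15 and 0.31. By the brightest probe set per gene, 2 genes rose. Trappc4, a subunit of the vesicle-tethering TRAPP complex, gave 10.01, 10.35, 10.08, 10.09 and 10.31 at 30 min, against 9.99, 9.81, 9.91 and 9.97 at 0 min (change 0.25 ± 0.066, adjusted p = 0.0454). The nearest arrays of the groups were 0.02 apart. Xpo4, a nuclear transport receptor, gave 8.97, 8.90, 8.87, 8.88 and 9.06 at 30 min, against 8.85, 8.68, 8.79 and 8.79 at 0 min (change 0.16 ± 0.042, adjusted p = 0.0435). Trappc4 lost its call without replicate 2, 3, 4 or 5 (adjusted p = 0.0737 to 0.667) and Xpo4 without replicate 1, 2, 4 or 5 (adjusted p = 0.0988 to 0.363).

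The other 6 rises, named after their values were seen, were probe sets with a mean over all arrays of up to 9.15: Zmym5 (0.31), Ttc19 (0.30), Phf6 (0.19), Scfd1 (0.18), Spag9 (0.15) and 1439857_at without a symbol (0.22). Of the 8, 5 had every 30 min array above every 0 min array, beside 192 of all tested probe sets (0.698%), and 6 had the same sign in each of replicates 1 to 4. Both counts come from the arrays that gave the calls, so they add no separate support. None of the 8 kept its call without each replicate in turn, and 1 of the 8 kept it when arrays were centred on ribosomal protein probe sets.

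The WT line gave the same comparison in Zfp36 +/+ cells, with group means from other arrays than those of the KO comparison. Both lines were tested in the same fit, which estimated the variance of each probe set from all arrays of the series. The calls in the KO and WT lines are therefore not independent. In WT cells 487 probe sets fell (1.77%) and 11 rose (0.04%). Of the 343 KO falls 241 were called in WT too, 70.3% of the KO falls and 49.5% of the WT falls, and 2 of the 8 KO rises were. Over the 343 KO falls, the median WT change was -0.26 beside a median KO change of -0.29. These probe sets were picked by their KO change, so the medians do not compare the size of the falls between the lines. The test of the difference itself called few: 7 probe sets had a higher (less negative) change in KO cells (0.0255%) and 2 a lower one (0.00727%). With replicates 1 to 3 against 4 and 5 as a block these were 13 (0.0473%) and 2 (0.00727%), within replicates 1 to 3 they were 5 (0.0182%) and 1 (0.00364%), and within replicates 4 and 5 they were 12 (0.0436%) and 3 (0.0109%). The higher ones numbered 4 without replicate 4 or without replicate 5, and the lower ones 1 without replicate 1, 2, 4 or 5.

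**Figure D5:**
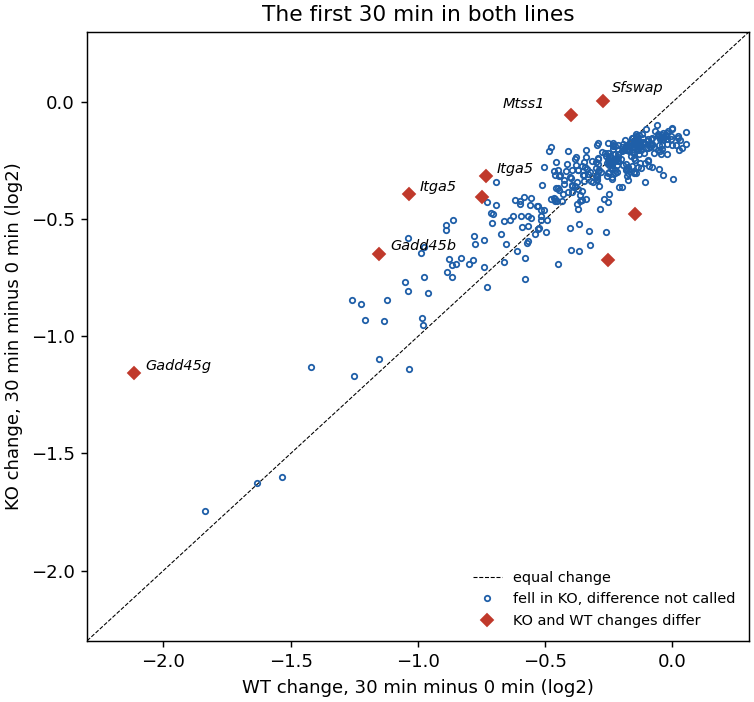
Change over the first 30 min in KO cells (vertical, log2) against WT cells (horizontal, log2) for probe sets that fell in KO cells or whose changes differed between the lines (red diamonds). Most points lie near the dashed line of equal change, and Gadd45g lies farthest above it, at -1.16 in KO cells and -2.12 in WT cells.

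Gadd45g had the largest difference. Its WT signals were 9.45, 9.50, 9.45, 9.23 and 9.22 at 30 min, against 11.47, 11.52, 11.75, 11.36 and 11.32 at 0 min, so that the WT line started from a mean of 11.48 where the KO line started from 10.12. The change was -1.16 in KO cells and -2.12 in WT cells, a difference of 0.96 ± 0.11 (adjusted p = 6.51e-07), and it was 0.91 within replicates 1 to 3 (adjusted p = 0.000632) and 1.02 within replicates 4 and 5 (adjusted p = 0.00789). After background subtraction it was 0.89 and not past the threshold (adjusted p = 0.171). Gadd45b had a change of -0.65 in KO cells and -1.15 in WT cells (difference 0.51 ± 0.079, adjusted p = 0.000473) and means at 0 min of 10.09 and 10.82. Its difference was not called within replicates 1 to 3 (0.48, adjusted p = 0.151) or within replicates 4 and 5 (0.58, adjusted p = 0.107).

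The remaining differences were named after their values were seen. Itga5, the integrin subunit of the fibronectin receptor, had 2 dim probe sets with a smaller fall in KO cells. Probe set 1458996_at gave 8.83, 8.77, 8.69, 8.83 and 8.70 at 30 min in KO cells, against 9.24, 9.16, 9.03 and 9.19 at 0 min, and changed by -0.39. In WT cells it gave 9.00, 8.98, 8.86, 8.82 and 8.91 at 30 min, against 9.96, 9.83, 10.10, 9.97 and 9.90 at 0 min, and changed by -1.04. The difference of 0.64 ± 0.059 (adjusted p = 1.5e-09) was past the threshold within replicates 1 to 3 and within replicates 4 and 5 (0.63 and 0.64, adjusted p = 0.000632 and 0.00501).

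At 1457561_at the difference for Itga5 was 0.42 and lost its call without replicate 3, 4 or 5 (adjusted p = 0.0836 to 0.0997), and the 2 brighter probe sets of Itga5 changed by 0.11 and 0.16 in KO cells without passing. Mtss1, an actin-binding membrane protein (0.35), and Sfswap, a splicing regulator (0.28), differed because they fell in WT cells, by 0.40 and by 0.27, and not past the threshold in KO cells, where they changed by -0.053 and 0.0072. Mtss1 lost its call without replicate 3, 4 or 5 (adjusted p = 0.103 to 0.447) and Sfswap without replicate 2, 4 or 5 (adjusted p = 0.194 to 0.577). Probe set 1438527_at, which is annotated to several genes, differed by 0.35.

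Both probe sets with a larger fall in KO cells carry no gene symbol. Probe set 1446503_at gave 8.36, 8.40, 8.38, 8.43 and 8.50 at 30 min in KO cells, against 9.13, 9.14, 9.02 and 9.05 at 0 min. In WT cells it gave 8.36, 8.32, 8.37, 8.35 and 8.39 at 30 min, against 8.60, 8.69, 8.46, 8.61 and 8.68 at 0 min, so the lines met at the same low level from different starting levels. The difference was -0.42 ± 0.049 (limma adjusted p = 6.51e-07), and it was not called after background subtraction. Probe set 1446850_at differed by -0.33 and lost its call without replicate 1, 2, 4 or 5 (adjusted p = 0.07 to 1).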

How the data were processed

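The deposited values are log2 signals per probe set and array. Per the labels' protocols, labelled cRNA was hybridised to Affymetrix Mouse Genome 2.0 arrays and read with GeneChip Operating Software, while the authors' probe summary, background correction, normalization and log base are not given in the sources used here. The deposited values were not rescaled for the main fit. Probe sets above the array median in at least 4 arrays were fitted with limma 3.58.1, R 4.3.3 and data.table (version 1.17.8), with 1 mean per group over all 48 arrays of the 10 groups, intensity trend and robust empirical Bayes. Tests were two-sided, with a Benjamini-Hochberg threshold of 0.05 over 27500 probe sets, and every adjusted p is from limma. The fit was tested on simulated data.

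Genes came from the platform annotation, with 23140 tested probe sets holding 1 symbol, 681 several and 3679 none, and promoters came from RefSeq. Genes named were Zfp36, Ier3, the 16 largest falls and up to 12 rises with 1 sign in replicates 1 to 4, the called line differences, and up to 4 called members per list. Other list members and probe sets were named after their values were seen. The members, lists and tests were chosen with earlier results of these data known. The labels number the replicates without saying whether they were separate experiments. The p-values rest on the spread between arrays within groups, pooled over both lines and all times, and not on the KO comparison alone. In the main fit that spread includes the split between sets of replicates described above. With apparently 1 line per genotype it holds no spread between lines, and the number of arrays limits the precision. Background subtraction took each array's 5th percentile off the linear signal and added 32.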

Additional observations from a re-analysis of the deposited data

Results flagged for a closer look

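In 9 of the 84 groups of 4 or 5 arrays looked at among the named genes, 1 array lay far from the others, and chance flags about 1 group in 20. At 30 min, KO replicate 5 was the lowest for Dusp2 (8.634), Ier2 (9.227), Myc (9.746) and Dusp6 (9.449), while KO replicate 4 was the highest for Smad7 (9.681) and KO replicate 1 for Rpl12 (8.364). At 0 min, KO replicate 4 was the lowest for Egr1 (10.055) and the highest for Snhg5 (9.463), and KO replicate 3 was the lowest for Zfp36 (9.278). Without the KO 30 min array of replicate 5, which has no partner at 0 min, 319 probe sets fell and 3 rose.

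The 30 min changes of 9 probe sets differed between KO and WT cells by the test of the difference (KO minus WT, log2). They were higher in KO for Gadd45g (0.9579), Itga5 at 1458996_at (0.64325) and 1457561_at (0.41765), Gadd45b (0.50565), 1438527_at (0.34665), Mtss1 (0.34535) and Sfswap (0.2804), and lower for 1446503_at (-0.4237) and 1446850_at (-0.3299).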

How the results depend on the processing

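No recomputed change of a named gene or probe set and none of the 9 called line differences reversed under the 16 alternatives, which were not followed for the other falls. Relative to 343 falls, 8 rises, and 7 higher and 2 lower line differences, some counts moved by over 1.5 times. They are given here together with some that moved less. With only the arrays of 0 and 30 min, 148 fell, 0 rose (450 at an unadjusted p under 0.05), and 2 and 1 differed. After background subtraction 218 fell (130 by at least 1.5-fold, against 46), 5 rose, and 2 and 0 differed (205 and 511 at an unadjusted p under 0.05). Quantile normalization gave 15 rises and 12 and 1 differences, centring on ribosomal protein probe sets 2 rises and 4 and 1 differences, and a fit without trend and robustness 1 lower difference. Leaving out each replicate gave between 197 and 308 falls, 1 and 15 rises, 4 and 9 higher and 1 and 2 lower differences. Chosen after seeing the data, the block of replicates 1 to 3 against 4 and 5 gave 16 rises and 13 higher differences, replicates 1 to 3 alone 1 rise and 1 lower difference, replicates 4 and 5 alone 216 falls, 4 rises and 12 higher differences, and the fit without the KO 30 min array of replicate 5 gave 319 falls and 3 rises. The cause was not tested.

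With the replicate number as a block, 543 probe sets fell, 39 rose and 14 differed upwards, including all of the 343 and the 8. Same-numbered KO arrays at 30 and 0 min deviated together with correlations of -0.14, 0.47, -0.11 and 0.83, so the numbers were not taken as pairs, and not every array correlated best with its own number. The median change of all probe sets stayed between -0.03 and 0.02 under the alternatives. Of 82 called changes in named genes or probe sets, 52 stood without each replicate in turn, including the 16 largest falls. Signals close to the floor limit the measured size of falls. Beside the losses given in the report, the fit of only the 0 and 30 min arrays ended the calls of Arid5b, Chac1, Ddit3, Dnajb4, Dusp16, Id3, Nfil3, Ppp1r15a, Snhg12, Tgif2, Zfp267 and all 8 rises, and background subtraction those of Arid5b, Chac1, Ddit3, Dusp16, Filip1l, Id3, Nfkbia, Nfkbiz, Ppp1r15a, Tgif2, Zfp267 and the brightest Ccn1 probe set.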
